A study of Mus musculus with 8 samples.

Results

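A set of 10 genes of the actin and intermediate filament cytoskeleton were followed across the aortic RNA-sequencing libraries of mice given angiotensin II. They were the 4 tropomyosin genes (Tpm1, Tpm2, Tpm3 and Tpm4), caldesmon (Cald1), the myosin essential light chain Myl6, the non-muscle myosin heavy chain Myh10, and the intermediate filament genes desmin (Des), vimentin (Vim) and synemin (Synm). The members were chosen by symbol, and all 10 of the 35896 genes listed were found and passed the filter on low counts. Tpm1, Tpm2, Cald1, Des and Synm were set as the muscle-type genes, and Tpm3, Tpm4, Vim, Myh10 and Myl6 as the widely expressed ones. The libraries came from the aortas of male C57BL6 mice, 11 weeks old when osmotic minipumps were implanted. In the AngII group, mice received 2.8 mg/kg/d of angiotensin II for 2 weeks and were sacrificed when the infusion ended. In the memory conditions, AngII+2W and AngII+3W, the same infusion was followed by 2 or 3 weeks without the drug. The CTRL group held untreated littermates of matched age, whose time of sacrifice the labels do not give. Each group had 2 libraries, and each library held RNA pooled from a portion of the aorta of 2 mice, so that 16 mice gave 8 libraries.

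Tropomyosins are coiled-coil proteins that polymerise along actin filaments and set which myosins and other proteins can reach them. Caldesmon binds actin, tropomyosin and myosin and restrains the actomyosin ATPase of smooth muscle. Desmin is the intermediate filament protein of muscle cells, vimentin that of mesenchymal cells in general, and vascular smooth muscle contains both. A lower desmin, caldesmon or smooth muscle myosin beside vimentin and non-muscle myosin is a classical description of smooth muscle cells that leave the contractile state. Tpm1, Cald1 and Myl6, among others, make muscle and non-muscle forms by alternative splicing. Tpm2 and Tpm3 also have 4 and 7 annotated coding transcripts. Gene-level counts do not separate the forms of any member, so the tropomyosin ratios and shares carry this limit too.

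Of the 10 genes, Tpm2 and Myl6 fell over the 2 weeks of angiotensin II, by 3.89-fold and 2.31-fold against CTRL. Both passed a false discovery rate (FDR) of 0.05 in edgeR's quasi-likelihood test over all 17182 genes tested. The ratio of Tpm2 to the widely expressed Tpm4 within a library was 3.05 ± 0.0543 (SD, n = 2) in CTRL and 0.597 ± 0.0912 (SD, n = 2) in AngII, and lay between these values in both memory groups. The ratio of Des to Vim gave no such separation over the 4 groups. It was 0.0634 and 0.0570 in CTRL and 0.0216 to 0.0445 in the AngII and AngII+2W libraries, but 0.236 and 0.0215 in AngII+3W. Desmin differed most between the replicates of one group.

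The promoters of many smooth muscle genes carry the CArG box, the sequence bound by serum response factor, and windows around the start sites of the 10 genes were therefore searched for it on both strands. RefSeq windows of build GRCm38.p6, from 250 bases before to 50 bases after each annotated start, gave 13 windows for the 10 members. An exact box lay in 1 of these windows, at an annotated start of Myl6, against 1.63% of the 32851 windows of all genes. A box with up to 1 base changed lay in 6 of the 13 member windows, from 5 members, against 21.1% of all windows. The MCAT element (CATTCC, either strand), another muscle promoter motif, lay in 3 of the 13 windows (Tpm1, Cald1 and Myh10), against 14.7% of all windows. The matches below show which members carry a box and how each is placed. Each is read 5′ to 3′ on the strand of the gene, with the box and its flanks in 30 bases and the box itself in capitals.
Myl6 (chr10:128493040-128493069, minus strand, box exact, 50 bases before the start): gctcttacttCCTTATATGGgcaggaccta
Tpm1 (chr9:67049415-67049444, minus strand, 1 base off, 221 bases before the start): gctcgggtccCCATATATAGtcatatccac
Tpm1 (chr9:67049274-67049303, minus strand, 1 base off, 80 bases before the start): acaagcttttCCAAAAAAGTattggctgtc
Cald1 (chr6:34598291-34598320, plus strand, 1 base off, 203 bases before the start): acggtttcaaGCTTTTTAGGacttggtttt
Synm (chr7:67759962-67759991, minus strand, 1 base off, 239 bases before the start): caacggggagCCTCATAAGGtgtcccagat
Tpm3 (chr3:90072575-90072604, plus strand, 1 base off, 66 bases before the start): gctagaaagaCCATGTTAGGaagaagaggt
Tpm3 also held 2 boxes with 1 base changed at a second annotated start. No match was found for Tpm2, Des, Vim, Tpm4 or Myh10 in these windows, which says only that the letters are not there. The genes with and without a match therefore did not divide along the muscle-type and widely expressed lines.

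The libraries held 18130441 to 21498200 counts, and every member had at least 487 counts in every library. In the smooth muscle marker list, all 4 genes (Acta2, Tagln, Myh11 and Cnn1) were detected everywhere, with a summed level of 6319 to 8289 CPM (counts per 1000000 of the scaled library total) in CTRL, 1380 to 1762 under AngII, 2937 to 3336 at AngII+2W and 1323 to 2500 in AngII+3W. Endothelial, adipocyte, fibroblast, leukocyte and Schwann cell markers were also detected in full in every library. In RNA from whole tissue, fewer cells of a type and less RNA per cell cannot be told apart. Muscle of other kinds was present as well. The 7 cardiac markers, all detected in every library, summed to 1668 to 3701 CPM in CTRL, 625 to 974 in AngII, 8.27 to 129 in AngII+2W and 265 to 4344 in AngII+3W. Myh6 made most of the CTRL and AngII+3W sums, with group means of 2040 and 1768 CPM. Myl2 had group means of 0.691 to 1.37 CPM, highest in AngII+2W. Myl3 was at a mean of 9.59 CPM in CTRL and 2.74 in AngII+3W. The 9 skeletal muscle markers summed to 5.85 to 75.0 CPM in 7 libraries, with Myh4 or Tnni2 at 0 in 4 of them, and to 2702 CPM in AngII+3W replicate 1. That library held 3340 CPM of the cardiac myosin Myh6 and 380 CPM of skeletal actin Acta1, against 197 and 0.860 CPM in AngII+3W replicate 2. It stands apart from its partner. The AngII+3W values of single genes against CTRL and the permutation p of the ratios are therefore given with and without it. The ratios themselves are given by library.

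On a scale of CPM per kb of the longest coding transcript, Vim had the highest level of the 10 genes in every group, at 500.2 ± 86.4 (SD, n = 2) in CTRL and 396 ± 0.872 in AngII. Myl6 followed in CTRL at 412 ± 24.6 CPM per kb, then Tpm1 at 282 ± 80.8 and Tpm2 at 176 ± 28.1. Cald1 stood at 133 ± 34.8, Myh10 at 65.2 ± 8.21, Tpm4 at 57.6 ± 8.17 and Tpm3 at 46.0 ± 0.375 CPM per kb. Des (30.3 ± 7.46) and Synm (9.71 ± 1.14) had the lowest levels in CTRL. Neighbours in that order were not separated beyond their spread for Vim and Myl6, for Tpm1 and Tpm2, for Tpm2 and Cald1, or for Myh10 and Tpm4, whose mean ± SD ranges overlapped. In AngII the order of the tropomyosins was different. Tpm4 (75.6 ± 2.36 CPM per kb) then stood above Tpm2 (45.2 ± 8.30), which had the lowest level of the 4. Because the longest transcript was used, levels per kb are low estimates for genes whose main form is shorter, such as Myl6.

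**Figure D1:**
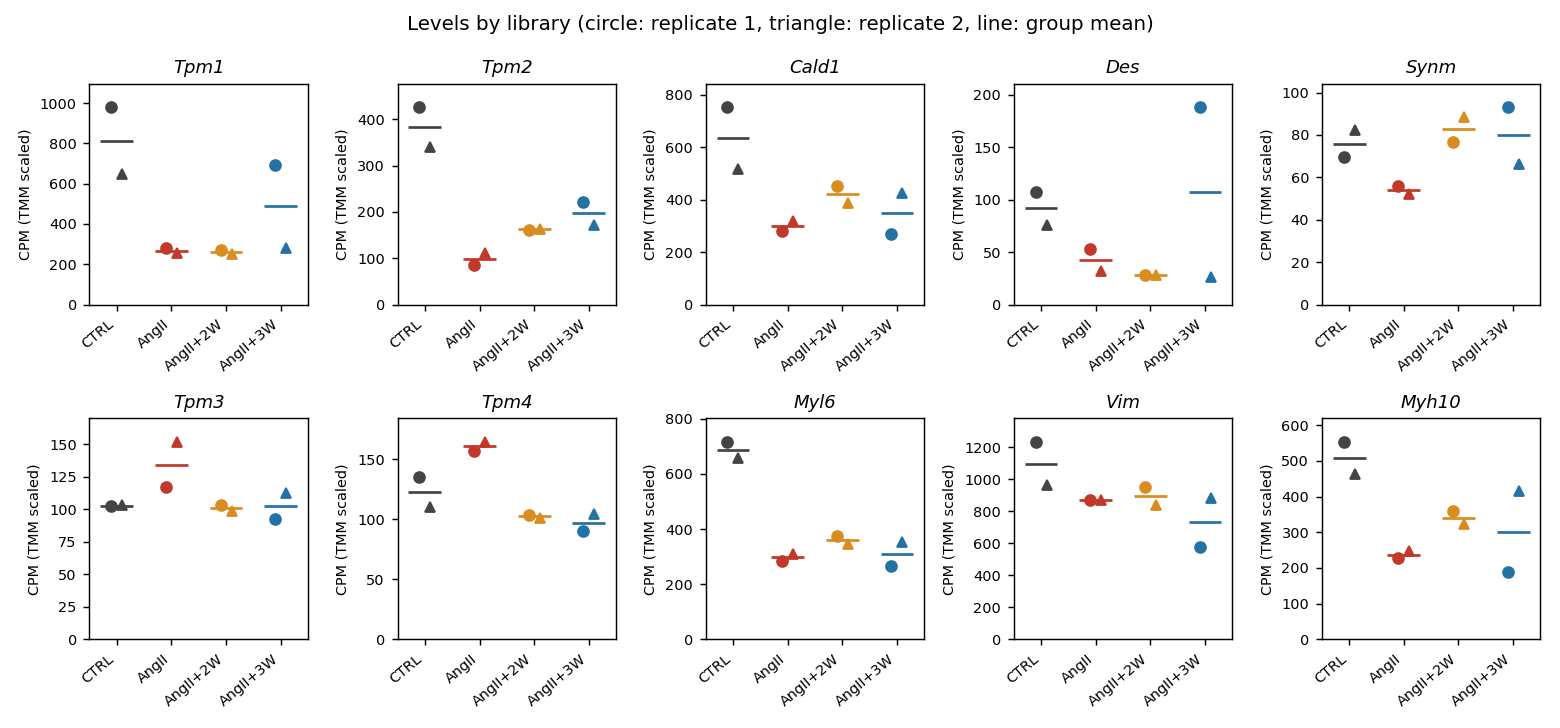
Level of each of the 10 members (CPM) in the 8 libraries, with circles for replicate 1, triangles for replicate 2 and a line for the mean of the group. Tpm2 lies at 339.7 and 426 CPM in CTRL and at 85.6 and 111 CPM in AngII, and Tpm1 and Des have 1 AngII+3W library far above the other.

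Tpm1, on chromosome 9 (GRCm38, chr9:67022590-67049406, minus strand), encodes the alpha tropomyosin of striated and smooth muscle and has 16 annotated coding transcripts. It measured 979 and 649 CPM in the CTRL libraries, 279 and 254 under AngII, 269 and 249 at AngII+2W, and 695 and 281 at AngII+3W. The CTRL values did not overlap those of AngII or AngII+2W, whereas 1 AngII+3W library lay among the CTRL values and the other just above the AngII ones. Against CTRL the log2 fold change was -1.61 ± 0.394 (SE) in AngII, with an edgeR FDR of 0.0617. In AngII+2W it was -1.65 ± 0.394 (FDR = 0.265) and in AngII+3W -0.74 ± 0.386 (FDR = 0.487, edgeR). Without AngII+3W replicate 1, the AngII+3W value was -1.54 with an edgeR FDR of 0.104, and the AngII value of -1.62 had an FDR of 0.00543. Cardiac muscle also expresses Tpm1, and the cardiac marker sums were highest in CTRL and in AngII+3W replicate 1, where they were mostly Myh6. Their part in these Tpm1 values was not tested.

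Tpm2 (chr4:43514711-43523765, minus strand), the beta tropomyosin of muscle, measured 426 and 339.7 CPM in CTRL, 85.6 and 111 under AngII, 161 and 164 at AngII+2W, and 222 and 171.5 at AngII+3W. Both CTRL libraries stood above the other 6, both AngII libraries stood below the other 6, and the memory libraries lay between them. The log2 fold change against CTRL was -1.96 ± 0.202 (SE) in AngII, with an edgeR FDR of 0.00663. In AngII+2W it was -1.24 ± 0.198 (FDR = 0.174), and in AngII+3W it was -0.96 ± 0.197 (edgeR FDR = 0.0976). Neither memory value passed 0.05. The AngII+3W value was -1.17 (FDR = 0.1097) without AngII+3W replicate 1. Tpm2 also passed the edgeR test for any difference among the 4 groups (FDR = 0.0198). Skeletal and cardiac muscle also express tropomyosin genes. The skeletal markers summed to 75.0 and 44.0 CPM in the CTRL libraries, which held the most Tpm2, and 71.1 and 33.1 CPM of this was muscle creatine kinase, Ckm, which the heart also expresses. They summed to 2702 CPM in AngII+3W replicate 1, where Ckm was at 244 CPM. The part of these markers in the Tpm2 values was not tested.

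Tpm3 and Tpm4, the tropomyosins of the cytoskeleton of most cells, were not called by edgeR's quasi-likelihood test in any comparison at an FDR of 0.05. Tpm3 (chr3:90072649-90100902, plus strand) measured 102 and 103 CPM in CTRL, 117 and 152 under AngII, 104 and 99.0 at AngII+2W, and 92.3 and 113 at AngII+3W. Its AngII libraries were the top 2 of 8, with a log2 fold change of 0.39 ± 0.163 (SE) and an edgeR FDR of 0.238. The memory values against CTRL were -0.02 (FDR = 0.981) in AngII+2W and -0.00 (FDR = 0.995, edgeR) in AngII+3W, or 0.12 without AngII+3W replicate 1. A near copy, Tpm3-rs7, is 99.2% identical over 85% of the Tpm3 transcript, but held only 2 to 9 counts. Tpm4 (chr8:72134975-72153142, plus strand) measured 135 and 110.3 CPM in CTRL, 157 and 164 under AngII, 104 and 101.1 at AngII+2W, and 90.3 and 104 at AngII+3W. Here the AngII libraries were above all others and the memory libraries below all others. Against CTRL the log2 fold changes were 0.39 ± 0.143 (FDR = 0.174) in AngII, -0.26 (FDR = 0.581) in AngII+2W and -0.33 (FDR = 0.399, edgeR) in AngII+3W. Against AngII, Tpm4 was at -0.65 ± 0.143 in AngII+2W (FDR = 0.0999) and at -0.72 ± 0.143 in AngII+3W (edgeR FDR = 0.0556). Tpm4 in AngII+3W was at -0.24 (edgeR FDR = 0.685) against CTRL without replicate 1. The fibroblast markers summed to 464 to 781 CPM in CTRL and 1358 to 1764 in AngII, and the leukocyte markers to 200.4 to 239 and 444 to 822, with every gene of both lists detected. Their part in the Tpm3 and Tpm4 values was not tested.

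The make-up of the tropomyosin transcripts, as a share of the summed CPM per kb of the 4 genes, was then compared between libraries. Tpm1 and Tpm2 together made 83.0% and 79.5% of the sum in the CTRL libraries, 51.8% and 48.9% under AngII, 63.7% in each AngII+2W library, and 80.3% and 63.9% in AngII+3W. Tpm2 alone made 30.4% and 32.6% in CTRL and 15.02% and 17.98% under AngII, while Tpm4 made 9.85% and 10.8% in CTRL and 28.2% and 27.2% in AngII. The summed level was 644 and 479 CPM per kb in CTRL and 262 and 284 in AngII. By the sum of Tpm1 and Tpm2 alone, AngII+3W replicate 1 lay near CTRL. The parts of that sum differed from CTRL. Tpm2 made 23.96% in this library, below both CTRL and both AngII+2W libraries, and Tpm1 made 56.4%, above every other library. AngII+3W replicate 1 also had the highest cardiac and skeletal marker sums, and their part in these shares was not tested. AngII+3W replicate 2 had a make-up close to that of AngII+2W.

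**Figure D2:**
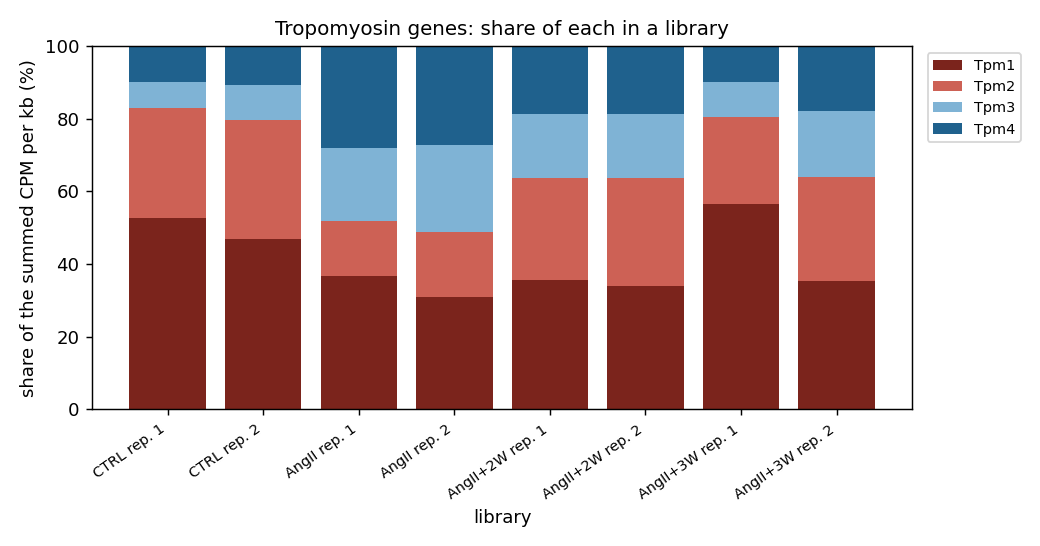
Share of each tropomyosin gene in the summed CPM per kb of Tpm1, Tpm2, Tpm3 and Tpm4 (percent), 1 stacked bar per library from 0. Tpm1 and Tpm2 together fill 79.5% and 83.0% of the CTRL bars and 48.9% and 51.8% of the AngII bars.

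Within-library ratios, which do not depend on how libraries are scaled, were set against the 4 groups by an exact permutation of the library labels. The smallest p that the 2520 arrangements allow is 0.00952, and p-values were adjusted over the 4 ratios tested. The ratio of Tpm2 to Tpm4 per kb was 3.09 and 3.01 in CTRL, 0.533 and 0.662 under AngII, 1.51 and 1.59 at AngII+2W, and 2.41 and 1.61 at AngII+3W. No library of one group overlapped another group, and the permutation gave that smallest p (adjusted p = 0.0190, exact permutation test). On the log2 scale the ratio differed from CTRL by -2.36 under AngII, -0.98 at AngII+2W and -0.63 in AngII+3W. The AngII+3W difference is a mean over both libraries, and replicate 2 alone, at 1.61, lay close to the AngII+2W libraries. The Tpm1 to Tpm3 ratio was 7.40 and 4.85 in CTRL, 1.84 and 1.30 under AngII, 2.01 and 1.94 at AngII+2W, and 5.81 and 1.93 at AngII+3W. The AngII+3W pair spanned nearly the whole range, and the 4 groups were not separated (exact permutation p = 0.162, adjusted p = 0.216). By the same exact test, the adjusted p of the Tpm2 to Tpm4 ratio was 0.0571 without AngII+3W replicate 1 and 0.0762 without either CTRL or either AngII+2W library, and remained 0.0190 without any one of the other 3 libraries. That of the Tpm1 to Tpm3 ratio was 0.0635 without AngII+3W replicate 1.

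Caldesmon (Cald1, chr6:34598500-34775473, plus strand) measured 751 and 517 CPM in CTRL, 279 and 318 under AngII, 452 and 388 at AngII+2W, and 269.5 and 425 at AngII+3W. Every treated library was below both CTRL libraries. The log2 fold change was -1.09 ± 0.263 (SE) in AngII (edgeR FDR = 0.0598), -0.59 in AngII+2W (FDR = 0.479) and -0.87 in AngII+3W (FDR = 0.231). Without AngII+3W replicate 1, where Cald1 was lower than in its partner, the AngII+3W value was -0.58 with an edgeR FDR of 0.465.

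Myl6 (chr10:128490860-128494145, minus strand) encodes the essential light chain that smooth muscle and non-muscle myosins share. Its level was 716 and 658 CPM in CTRL, 284 and 311 under AngII, 376 and 347 at AngII+2W, and 265 and 352 at AngII+3W. All 6 libraries of infused mice were below both CTRL libraries, with no group of them near the CTRL level. The log2 fold change was -1.21 ± 0.174 (SE) in AngII, with an edgeR FDR of 0.0152. It was -0.93 ± 0.173 in AngII+2W (FDR = 0.174) and -1.15 ± 0.174 in AngII+3W (edgeR FDR = 0.0552), and -0.97 (FDR = 0.104) in AngII+3W without replicate 1. Myl6 passed the edgeR test for any difference among the 4 groups (FDR = 0.0266). Of the 5 processed pseudogenes that resemble parts of its transcript, none held more than 6 counts in a library.

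Myh10 (chr11:68691559-68816632, plus strand), the heavy chain of non-muscle myosin IIB, was grouped with the widely expressed genes but was below CTRL in all 6 libraries of infused mice. It measured 553 and 463 CPM in CTRL, 227 and 247 under AngII, 359.5 and 322 at AngII+2W, and 188 and 414.5 at AngII+3W. The log2 fold change was -1.10 ± 0.326 (SE) in AngII (edgeR FDR = 0.103), -0.57 in AngII+2W (FDR = 0.586) and -0.75 in AngII+3W (FDR = 0.399). The AngII+3W value was -0.30 (edgeR FDR = 0.642) without replicate 1. The smooth muscle heavy chain Myh11 differed by more. Per kb, the ratio of Myh11 to Myh10 was 8.30 and 7.66 in CTRL, 3.25 and 3.88 under AngII, 5.06 and 5.66 at AngII+2W, and 4.84 and 4.53 at AngII+3W. The 4 groups did not overlap in this ratio either (exact permutation p = 0.00952, adjusted p = 0.0190). The adjusted p was 0.0571 without AngII+3W replicate 1 and 0.0762 without AngII+2W replicate 2, and it stayed below 0.05 without any one of the other 6 libraries. Relative to CTRL the ratio was -1.17 under AngII, -0.57 at AngII+2W and -0.77 in AngII+3W on the log2 scale.

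Desmin (Des, chr1:75360329-75368579, plus strand) measured 108 and 75.8 CPM in CTRL, 53.2 and 31.6 under AngII, 28.3 and 28.5 at AngII+2W, and 188 and 26.2 at AngII+3W. The libraries of AngII and AngII+2W were below both CTRL libraries, whereas AngII+3W held the highest and the lowest value of the series. The fits gave log2 fold changes of -1.12 ± 0.731 (SE, FDR = 0.457) in AngII, -1.69 ± 0.745 (FDR = 0.480) in AngII+2W and 0.22 ± 0.719 (FDR = 0.928, edgeR) in AngII+3W. When AngII+3W replicate 1 was left out, the AngII+3W value turned to -1.82, with an edgeR FDR of 0.104. In that fit the AngII value was -1.12 with an FDR of 0.0351, and desmin then passed the edgeR threshold in AngII and AngII+2W. The summed cardiac markers ran from 8.27 to 4344 CPM and were highest in AngII+3W replicate 1, followed by the CTRL libraries, the same 3 libraries that held the most desmin. These 3 sums were mostly Myh6, and Myl2 and Myl3 did not follow that order. Heart and skeletal muscle express desmin, and the part of these markers in its values was not tested.

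Vimentin (Vim, chr2:13573927-13582826, plus strand) measured 1231 and 963 CPM in CTRL, 866 and 869 under AngII, 948 and 839 at AngII+2W, and 578 and 883 at AngII+3W. All 6 libraries of infused mice lay below the lower CTRL library, 5 of them between 839 and 948 CPM, and the lowest was AngII+3W replicate 1. The log2 fold changes against CTRL were -0.34 (FDR = 0.480) in AngII, -0.30 (FDR = 0.722) in AngII+2W and -0.59 (FDR = 0.358, edgeR) in AngII+3W. The latter was -0.32 (FDR = 0.671) without replicate 1. The ratio of Des to Vim per kb was 0.0634 and 0.0570 in CTRL, 0.0445 and 0.0263 under AngII, 0.0216 and 0.0246 at AngII+2W, and 0.236 and 0.0215 at AngII+3W, so that the groups were not separated (exact permutation p = 0.562, adjusted p = 0.562). Leaving out AngII+3W replicate 1 gave an adjusted p of 0.105, and leaving out replicate 2 in its place gave 0.0190, both by exact permutation.

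Synemin (Synm, chr7:67730160-67759742, minus strand) is a large intermediate filament protein that joins desmin or vimentin filaments to attachment sites. It measured 69.6 and 82.2 CPM in CTRL, 55.9 and 52.0 under AngII, 76.7 and 88.6 at AngII+2W, and 93.0 and 66.5 at AngII+3W. The AngII libraries were the lowest 2 of the 8, with a log2 fold change of -0.49 ± 0.183 (SE) and an edgeR FDR of 0.182. Both memory groups overlapped CTRL, at 0.12 (FDR = 0.873) and 0.07 (FDR = 0.909, edgeR), and without AngII+3W replicate 1 the latter was -0.20. Synm shares 84 exon bases with Ttc23 on the opposite strand, and whether counting used strand is not given in the sources used here.

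**Figure D3:**
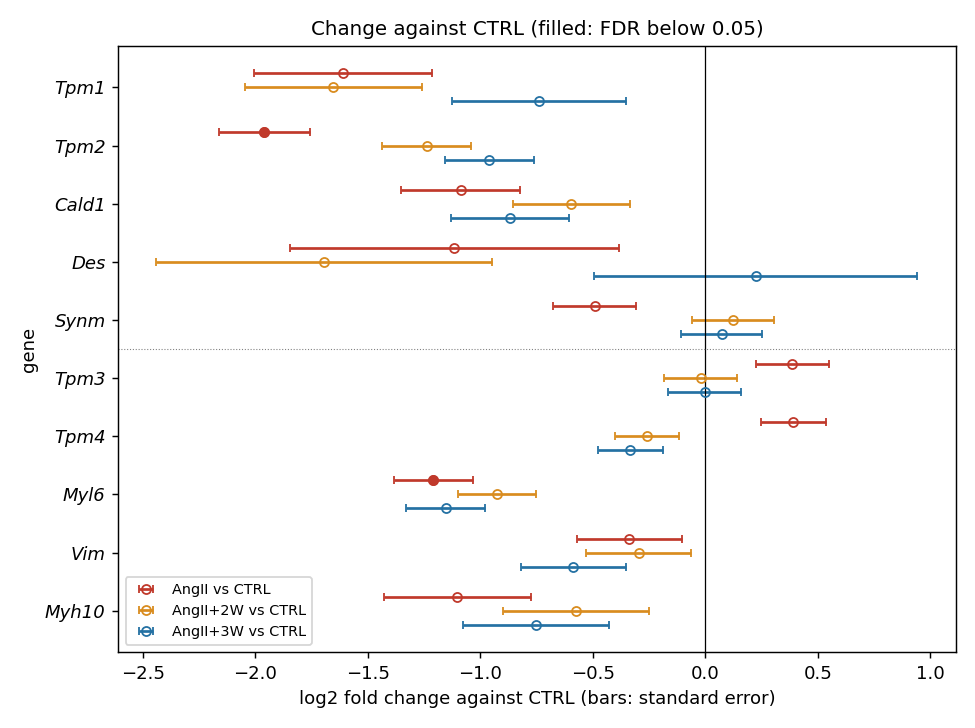
Log2 fold change of each member against CTRL in AngII, AngII+2W and AngII+3W, with bars of 1 SE from edgeR and filled points where the FDR is below 0.05. The muscle-type genes stand above the dotted line and the widely expressed ones below it, and the 2 filled points are Tpm2 and Myl6 in AngII.

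Counted over the 10 members, 2 fell in AngII at an edgeR FDR of 0.05, against a background of 2.20% of all genes tested that were called lower. At an FDR of 0.1 there were 4 (Tpm2, Myl6, Cald1 and Tpm1), against 4.24% of all genes. At an unadjusted p below 0.05, 6 members were lower (background 9.29%) and 2, Tpm3 and Tpm4, were higher (background 10.9%). The median log2 fold change over the members was -1.09, beside -0.01 over all genes tested. For the muscle-type genes it was -1.12, and for the widely expressed ones -0.34. The count at an FDR of 0.05 depended on single libraries. With any 1 library left out, the log2 fold change lay between -2.16 and -1.78 for Tpm2 and between -1.28 and -1.14 for Myl6. Leaving out CTRL replicate 1 or either AngII library lowered the count of members called, and also the share of all genes called. Without either AngII+3W library the count was 6 (Tpm1, Tpm2, Cald1, Myl6, Des and Myh10), where 8.97% of all genes were called in either direction without replicate 1 and 8.94% without replicate 2. The spread between the AngII+3W pair enters the shared error of the fit, and leaving out either library removes it.

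In AngII+2W no member was called at an FDR of 0.05, and neither was any other gene (0% of those tested, smallest FDR 0.174). At an unadjusted p below 0.05, 3 members were lower (Tpm1, Tpm2 and Myl6), against 6.18% of all genes. DESeq2 and edgeR's likelihood ratio test each called those 3 at an FDR of 0.05, where they called 2.17% and 2.44% of all genes. Without either AngII+3W library, edgeR called 4 members, which were these 3 and Des, where 1.57% of all genes were called without replicate 1 and 1.58% without replicate 2. The median over the members was -0.58 on the log2 scale, beside -0.00 over all genes. It was -1.24 for the muscle-type genes and -0.30 for the widely expressed ones.

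In AngII+3W no member passed an FDR of 0.05, against 0.285% of all genes. Tpm2 and Myl6 passed 0.1, against 1.23% of all genes called lower at that level. At an unadjusted p below 0.05, 6 members were lower (background 7.18%). DESeq2 called 3 members at an FDR of 0.05 (Cald1, Myl6 and Tpm2) and the likelihood ratio test 2 (Myl6 and Tpm2), where they called 3.7% and 3.24% of all genes. The median was -0.66, beside 0.03 over all genes. For the muscle-type genes it was -0.74 and for the widely expressed ones -0.59, closer together than in AngII. Leaving out AngII+3W replicate 1 left 0 members called by edgeR (0.0116% of all genes), and leaving out replicate 2 gave 2, Myl6 and Myh10 (2.09% of all genes). These comparisons share the CTRL libraries, so that likeness between them is not independent.

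Set directly against the end of the infusion, Tpm2 was higher and Tpm4 lower in both memory groups, short of an FDR of 0.05. Tpm2 was at 0.72 ± 0.197 (SE, FDR = 0.151) in AngII+2W and at 1.00 ± 0.198 (FDR = 0.0551, edgeR) in AngII+3W, relative to AngII. All 4 memory libraries lay above both AngII libraries for Tpm2 and below both for Tpm4. For AngII+2W against AngII, 0 members were called, where 0.163% of all genes were called, and 4 had an unadjusted p below 0.05 (background 15.0%). DESeq2 called 2 of them, Tpm2 and Tpm4, and the likelihood ratio test Tpm4, where they called 3.99% and 4.46% of all genes. For AngII+3W against AngII, 0 members were called (background 1.61%) and 4 had an unadjusted p below 0.05 (background 17.8%). Tpm2 and Tpm4 were again called by both other tests, which called 5.63% and 6.22% of all genes. Without AngII+3W replicate 1, edgeR gave Tpm2 0.80 (FDR = 0.156) and Tpm4 -0.63 (FDR = 0.167), and without replicate 2 it called 5 members (Des, Synm, Tpm1, Tpm2 and Tpm4), where 5.2% of all genes were called. Desmin was at 1.34 (edgeR FDR = 0.385) with both AngII+3W libraries and at -0.70 (FDR = 0.403) without replicate 1. Between the 2 memory groups edgeR's quasi-likelihood test called no gene (0% of those tested), and 2 members had an unadjusted p below 0.05 (background 8.83%). DESeq2 and the likelihood ratio test called 1.31% and 1.59% of all genes there, and no member. The largest difference there was that of Des, 1.92 (edgeR FDR = 0.521), which was -0.12 without AngII+3W replicate 1. In the test for any difference among the 4 groups, 2 members passed (Tpm2 and Myl6), against 2.79% of all genes, and 7 had an unadjusted p below 0.05 (background 20.1%). The count of members that passed changed when single libraries were left out, as did the share of all genes called.

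The genes that work with these members were taken as lists, chosen with earlier results of these data known. The paper had already reported Acta2, Myl9 and Synpo2 as lower in these libraries, at the end of the infusion and in a memory group. All of these are in the smooth muscle list. The counts of that list are therefore not independent of the earlier result, and the shares of all genes beside them are descriptive. Of 11 smooth muscle actin and myosin genes, 9 fell in AngII at an edgeR FDR of 0.05 and none rose, against 2.20% of all genes called lower, and their median was -2.15 on the log2 scale. In AngII+3W 6 of them fell, against 0.268% of all genes (median -1.56), and in AngII+2W none passed (median -1.08). Synpo2, an actin-bundling protein of the Z-line and dense body, was at -2.16 (FDR = 0.00530) in AngII, -0.91 (FDR = 0.220) in AngII+2W and -1.56 (FDR = 0.0455, edgeR) in AngII+3W. The regulatory light chain Myl9 was at -2.08 (FDR = 0.00530), -1.08 (FDR = 0.174) and -2.25 (FDR = 0.0357, edgeR). Enteric smooth muscle actin, Actg2, was at -2.30 (FDR = 0.0116), -1.91 (FDR = 0.174) and -2.21 (FDR = 0.0455, edgeR). Without AngII+3W replicate 1 the AngII+3W values were -1.36 (FDR = 0.0959) for Synpo2, -2.02 (FDR = 0.0518) for Myl9 and -2.13 (FDR = 0.104, edgeR) for Actg2. These counts also turned on single libraries. The AngII count was higher without either AngII+3W library and lower without any other, as was the share of all genes called. The AngII median then ran from -2.31 to -1.94. In AngII+3W the count was higher without AngII+3W replicate 2, as was the share of all genes called. It was lower without any other library, and so was that share except without CTRL replicate 2. The AngII+3W median ran from -2.16 to -1.37 and was -1.75 without AngII+3W replicate 1. In AngII+2W the count was higher without either AngII+3W library, as was the share of all genes called. With no library left out, DESeq2 called 8 in AngII+2W and the likelihood ratio test 7, where they called 2.17% and 2.44% of all genes.

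Of 9 non-muscle actin and myosin genes, none passed an edgeR FDR of 0.05 in the 3 comparisons with CTRL, against 5.10%, 0% and 0.285% of all genes. DESeq2 and the likelihood ratio test each called 1, 1 and 5 of them lower in AngII, AngII+2W and AngII+3W. Of all genes DESeq2 called 9.45%, 2.17% and 3.7% there, and the likelihood ratio test 9.96%, 2.44% and 3.24%. The edgeR medians were -0.15 under AngII, -0.48 at AngII+2W and -0.71 in AngII+3W. The smallest FDR in AngII was that of the calponin Cnn3, with -0.87 (FDR = 0.0728) there and -1.33 (edgeR FDR = 0.0663) in AngII+3W, or -1.15 without AngII+3W replicate 1, where the median of the list was -0.63. Cnn2 was at -0.47 (FDR = 0.223) and the light chain Myl12a at -0.52 (FDR = 0.241, edgeR) in AngII. Of 8 partners of intermediate filaments, 1 rose and 1 fell in AngII and none passed in the memory groups by edgeR's quasi-likelihood test. Of all genes, 2.90% were called higher and 2.20% lower in AngII. DESeq2 and the likelihood ratio test each called 2 partners lower in AngII+2W, where they called 2.17% and 2.44% of all genes. Each called 1 partner lower in AngII+3W, where they called 3.7% and 3.24% of all genes. Sync (syncoilin), which binds desmin filaments in muscle, was at -1.52 (FDR = 0.0119) in AngII and -0.99 (edgeR FDR = 0.0942) in AngII+3W, or -0.82 without AngII+3W replicate 1. The count of partners called in AngII was lower without any 1 of the CTRL, AngII or AngII+2W libraries. It was higher without either AngII+3W library. The share of all genes called moved in the same way. Lmnb1, a nuclear lamin, was at 0.93 (FDR = 0.0391) in AngII, was not called when any 1 of the CTRL, AngII or AngII+2W libraries was left out, and was at -0.21 and -0.05 (edgeR) in the memory groups, the latter being -0.00 without AngII+3W replicate 1. The linker Dst was at -0.74 (edgeR FDR = 0.0670) in AngII.

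For 4 members, the 3 genes with the most similar profile were sought over the 8 libraries, by the root mean square difference of log2 CPM after centring each gene on its mean. For Des they were Tmem38a (0.145), Efcab2 (0.150) and Ankrd23 (0.178), against a spread of Des itself of 0.990 on that scale. Tpm2 was closest to Myom1 (0.148), Csdc2 (0.188) and Tacc2 (0.189), with a spread of its own of 0.719. Myom1, a protein of the M-band of striated muscle, had mean levels of 645 CPM in CTRL, 136 under AngII, 238 at AngII+2W and 326 in AngII+3W. Vim was closest to Abcc9 (0.0684), Ext1 (0.0849) and Lrrc8a (0.0925), and Tpm4 to Tmed9 (0.0805), Rpn1 (0.0819) and Lamc1 (0.0921), with spreads of their own of 0.282 and 0.298. These likenesses are descriptions over 8 libraries that also share their depth and make-up.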

How the data were processed

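RNA from a portion of each aorta was sequenced after removal of ribosomal RNA. The authors quantified reads with Salmon against Ensembl GRCm38 transcripts within the ARMOR workflow, and deposited un-normalized expected counts per gene as whole numbers. Transcript-length offsets and isoforms were not part of the counts used. Genes were filtered with filterByExpr, scaled by TMM and fitted with edgeR 4.0.16 (R 4.3.3) over all 8 libraries, with 1 coefficient per group, 4 residual degrees of freedom, quasi-likelihood F tests and Benjamini-Hochberg adjustment over 17182 genes. The SE is the log2 fold change divided by the square root of F. CPM are TMM-scaled. Pools within a group differed far beyond counting noise, and p-values measure the spread between pools. Levels per kb used the longest coding transcript of the GRCm38 annotation, and near copies were sought with BLAST 2.17.0. Alternatives were DESeq2 1.42.0, limma-voom (limma 3.58.1), other edgeR tests, scalings and filters, a replicate block, only the groups compared, 10 added counts for ratios, and leaving out each library. The fit and the permutation test were tested on simulated data. The members, lists and tests were chosen with earlier results of these data known. Named were all 10 members, the 3 genes of each list with the smallest p in AngII, Myh11 for its ratio, the 3 nearest profiles of Des, Tpm2, Vim and Tpm4, and the marker lists with Acta1 and Myh6. Genes singled out beyond that, such as Ttc23, Tpm3-rs7, Myh4, Tnni2 and Ckm, were chosen after their values were seen.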

Additional observations from a re-analysis of the deposited data

How the results depend on the processing

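No log2 fold change of a member that had passed the threshold changed direction under any of the alternatives run. Among values that had not passed, Des in AngII+3W against CTRL took either sign, at 0.22 as reported, -0.37 by limma-voom, -0.10 with a replicate block and -1.82 without AngII+3W replicate 1. With no library left out, 22 of the other counts of members called were higher and 47 stayed within 1.5 times. The share of all genes called is given in brackets. In AngII against CTRL 2 were called. Keeping every gene with at least 1 count (4.63%) or with at least 10 counts in every library (6.26%) gave 4. DESeq2 (9.45%), the likelihood ratio test (9.96%) and a fit of only the groups compared (6.32%) gave 5. In AngII+2W against CTRL, DESeq2 (2.17%) and the likelihood ratio test (2.44%) gave 3. In AngII+3W against CTRL, both gene filters gave 1 (0.819% and 0.791%), DESeq2 3 (3.7%) and the likelihood ratio test 2 (3.24%). In AngII+2W against AngII, DESeq2 gave 2 (3.99%), the likelihood ratio test 1 (4.46%) and the fit of the groups compared 3 (4.89%). In AngII+3W against AngII, both gene filters (2.14% and 2.41%), DESeq2 (5.63%) and the likelihood ratio test (6.22%) gave 2. The newer quasi-likelihood fit also gave 2 there (2.01%), and limma-voom 1 (1.67%). For any difference among the 4 groups, DESeq2 gave 6 (11.3%) and the likelihood ratio test 5 (13.1%). Scaling by DESeq2 size factors or by library totals left these counts where they were. The smooth muscle actin and myosin genes called lower in AngII+3W, 6 as reported, were 9 by DESeq2 and the likelihood ratio test. They were 0 with library totals alone, with a replicate block or with only the groups compared. Of all genes, DESeq2 called 3.7% there and the likelihood ratio test 3.24%. Library totals alone called 0.00582%, the replicate block 0.0233% and the groups compared 0%. Over all genes, 5.10% were called in AngII against CTRL, against 9.45% by DESeq2, 9.96% by the likelihood ratio test and 0% without AngII replicate 2.

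With 1 library left out in turn, the members called ranged from 0 to 6 in AngII against CTRL, 0 to 4 in AngII+2W, 0 to 2 in AngII+3W, 0 to 0 in AngII+2W against AngII, 0 to 5 in AngII+3W against AngII, 0 to 2 between the memory groups, and 0 to 7 among the 4 groups. The higher ends came without an AngII+3W library. The adjusted exact permutation p ranged from 0.0190 to 0.0762 for Tpm2 to Tpm4 and for Myh11 to Myh10, 0.0190 to 0.752 for Des to Vim, and 0.0635 to 0.406 for Tpm1 to Tpm3. Leaving out a library leaves that group 1 library, which is assumed to vary like the others.

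Replicates of different groups share a number only: over 15159 genes the correlation of their deviations ran from -0.01 to 0.33 by pair of groups. A replicate block gave 3 members called in AngII against CTRL (5.06% of all genes), Tpm1 being added (edgeR FDR = 0.0411). It gave 0 in AngII+2W (0%) and in AngII+3W (0.0233%), and 2 among the 4 groups (2.08%). Permuting within the block allows no p below 0.0417, and the adjusted p became 0.0833 for Tpm2 to Tpm4 and for Myh11 to Myh10.

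With 2 libraries a group, an exact test of 2 against 2 libraries cannot go below 0.33. The members had at least 487 counts in every library, which makes counting error small beside the spread between pools.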
